A study of Mus musculus with 14 samples.

Results

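The genes described here encode synaptic adhesion and organizer proteins, the surface and secreted proteins that join the 2 sides of a synapse and recruit its machinery. Members were chosen by gene symbol, without use of any measured value: neurexins, LAR-type receptor phosphatases (Ptprd, Ptprf, Ptprs), cerebellins (Cbln1 to Cbln4), neuroligins (Nlgn1 to Nlgn3), leucine-rich repeat transmembrane proteins (Lrrtm1 to Lrrtm4), Slitrks (Slitrk1 to Slitrk6), IL-1 receptor accessory protein-like proteins (Il1rapl1, Il1rapl2), calsyntenins (Clstn1 to Clstn3), FLRTs (Flrt1 to Flrt3), contactins (Cntn1 to Cntn6) and the contactin-associated Caspr family (Cntnap1 to Cntnap4, Cntnap5a to Cntnap5c). Earlier results of these data were known when the members were chosen. The rule found 44 of the 43346 genes of the table. The latrophilins Adgrl1 to Adgrl4 were also in the rule, but the table lists them under older symbols, so they are described beside the members and are not counted among them.

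RNA was sequenced from brain tissue that held hippocampal and cortical regions, taken from 14 female mice aged 23 months on the strain background C57BL/6;SJL-Tg. The groups were 4 non-transgenic littermates (NTG, mice 7 to 10), 5 double transgenic APP/PS1 mice (mice 16 to 20), and 5 APP/PS1 mice given CP2 (APP/PS1+CP2, mice 21 to 25), and mice without CP2 received the vehicle, 0.1% PEG in the drinking water. APP/PS1 mice carry mutant human amyloid precursor protein and presenilin 1 and develop amyloid plaques, and the promoters that drive the transgenes are not given in the sources used here. CP2 is a tricyclic pyrone that partly inhibits complex I of the mitochondrial respiratory chain. The daily dose was 25 mg/kg from 9 months of age, over 14 months, and no NTG mice on CP2 were analysed here. The 3 comparisons ask how the genes differ between APP/PS1 and NTG mice, between APP/PS1+CP2 and APP/PS1 mice, and between APP/PS1+CP2 and NTG mice. The comparisons overlap in mice: those with APP/PS1 mice share that group, those with NTG mice share the littermates, and those with CP2 share the dosed mice.

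At a synapse, neurexins and LAR-type phosphatases lie on the axon terminal and bind partners on the dendrite, among them neuroligins, LRRTMs, Slitrks, IL1RAPLs and calsyntenins. Cerebellins are secreted and bridge neurexins to glutamate delta receptors, and FLRTs bind latrophilins and Unc5 receptors. Contactins and Casprs also act along axons, where contactin 1 and Caspr anchor the myelin loops beside the node of Ranvier. Hippocampus and cortex express most of these families, and different neuron types use different members.

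Total counts per mouse ranged from 70548781 to 106235625, and the 44 genes took between 0.561% and 0.630% of them. Levels are given in CPM (counts relative to library size, with TMM factors) to compare mice and in RPKM (also relative to gene length) to compare genes, and 1 count was worth about 0.011 CPM in mouse 7. Markers of neurons, excitatory neurons, cortical layers, hippocampal CA fields and dentate granule cells were detected in all 14 mice. Some libraries stood apart in region markers. In NTG mouse 7 the summed CPM of 6 cerebellar markers was 299, against 17.9 to 22.9 in the other NTG mice. In APP/PS1 mouse 16 the summed CPM of 10 striatal markers was 2865, against 251 to 361 in the other APP/PS1 mice, while 8 thalamic markers summed to 171 against 325 to 465. The cerebellar sum was 69.4 and 48.0 in APP/PS1 mice 18 and 19, against 12.2 to 19.6 in the rest of that group. Markers of hypothalamus and habenula (7 genes) summed to 60.9 and 84.8 in APP/PS1+CP2 mice 22 and 23. Their sum was 36.1 in NTG mouse 10 and 9.66 to 23.8 in all remaining mice. In bulk tissue a smaller number of cells of one type cannot be told apart from less RNA per cell.

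The members covered a wide range of levels. Clstn1, a calsyntenin that links vesicle cargo to kinesin, was highest, at a mean of 192 RPKM over the 14 mice, followed by Clstn3 at 65.9 RPKM and Ptprs at 48.7 RPKM. Cntn1 at 40.6 RPKM, Cntnap1 (Caspr) at 39.0 RPKM and Nlgn2, the neuroligin of inhibitory synapses, at 35.6 RPKM came next. In all, 19 members had a mean of at least 10 RPKM. At the low end stood Slitrk6 at 1.13 RPKM and Il1rapl2 at 0.685 RPKM, the only member below 1 RPKM. In this order 39 of 43 pairs of neighbours had overlapping ranges over the 14 mice, and the 4 steps without overlap were Clstn1 to Clstn3, Clstn3 to Ptprs, Ptprs to Cntn1, and Nlgn2 to Nrxn2.

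**Figure D1:**
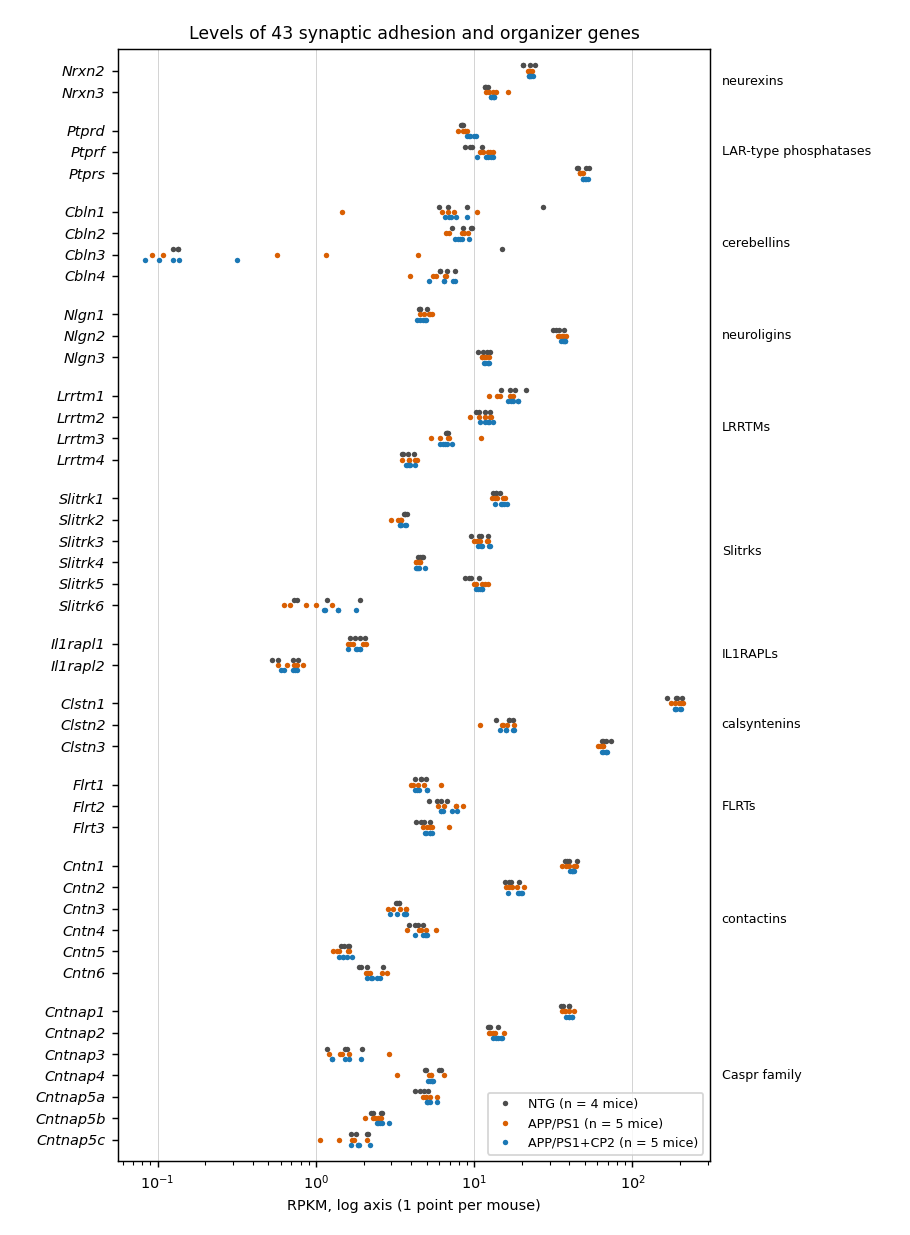
RPKM of 43 of the 44 genes (log axis) in each mouse, with 1 point per mouse and colours for the NTG, APP/PS1 and APP/PS1+CP2 groups, in rows grouped by family. Clstn1 lies highest near 192 RPKM, the 3 groups overlap in most rows, and Cbln3 spans the widest range.

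Members of a family differed in level by between 1.45 and 27.1 times. The FLRTs were closest to each other, from Flrt2 at 6.71 RPKM to Flrt1 at 4.64 RPKM, and the neurexins followed, from Nrxn2 at 22.3 RPKM to Nrxn3 at 12.9 RPKM. The contactins were farthest apart, from Cntn1 at 40.6 RPKM to Cntn5 at 1.5 RPKM. In the remaining families the highest members were Cbln1 (8.49 RPKM, raised by mouse 7), Lrrtm1 (16.8 RPKM), Slitrk1 (14.3 RPKM) and Il1rapl1 (1.81 RPKM). In mouse 7 Cbln1 was at 27.3 RPKM. The mean of the other NTG mice was 7.27 RPKM for Cbln1 and 9.26 RPKM for Cbln2. Cbln2 was also above Cbln1 in the means of both transgenic groups. The genes were also long. Their median span on the genome was 88.1 kb against 20.7 kb for all genes tested, and 14 members (31.8%) spanned more than 500 kb against 1.22% of all genes tested. Ptprd was the longest, at 2271 kb on chromosome 4 (mm10, 75941238 to 78211961).

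Between mice the members were about as variable as other genes. The median coefficient of variation over the 14 mice was 9.15% for the 43 members tested and 9.65% for all genes tested, and without mice 7 and 16 it was 7.72% and 8.74%. Mouse 16 held the highest value of 10 members and the lowest of 10 others (23.3% each), against 15.8% and 16.7% of all genes tested. Against the mean of the other APP/PS1 mice, mouse 16 was more than 1.5 times higher for 2 members, Cntnap3 (2.07 times) and Lrrtm3 (1.78 times), and more than 1.5 times lower for 5, Cbln3, Cbln1, Cntnap4, Cntnap5c and Cbln4. Mouse 7 was more than 1.5 times higher than the mean of the other NTG mice for Cbln3 (112 times) and Cbln1 (3.70 times) and lower for Slitrk6 (0.599 times).

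**Figure D2:**
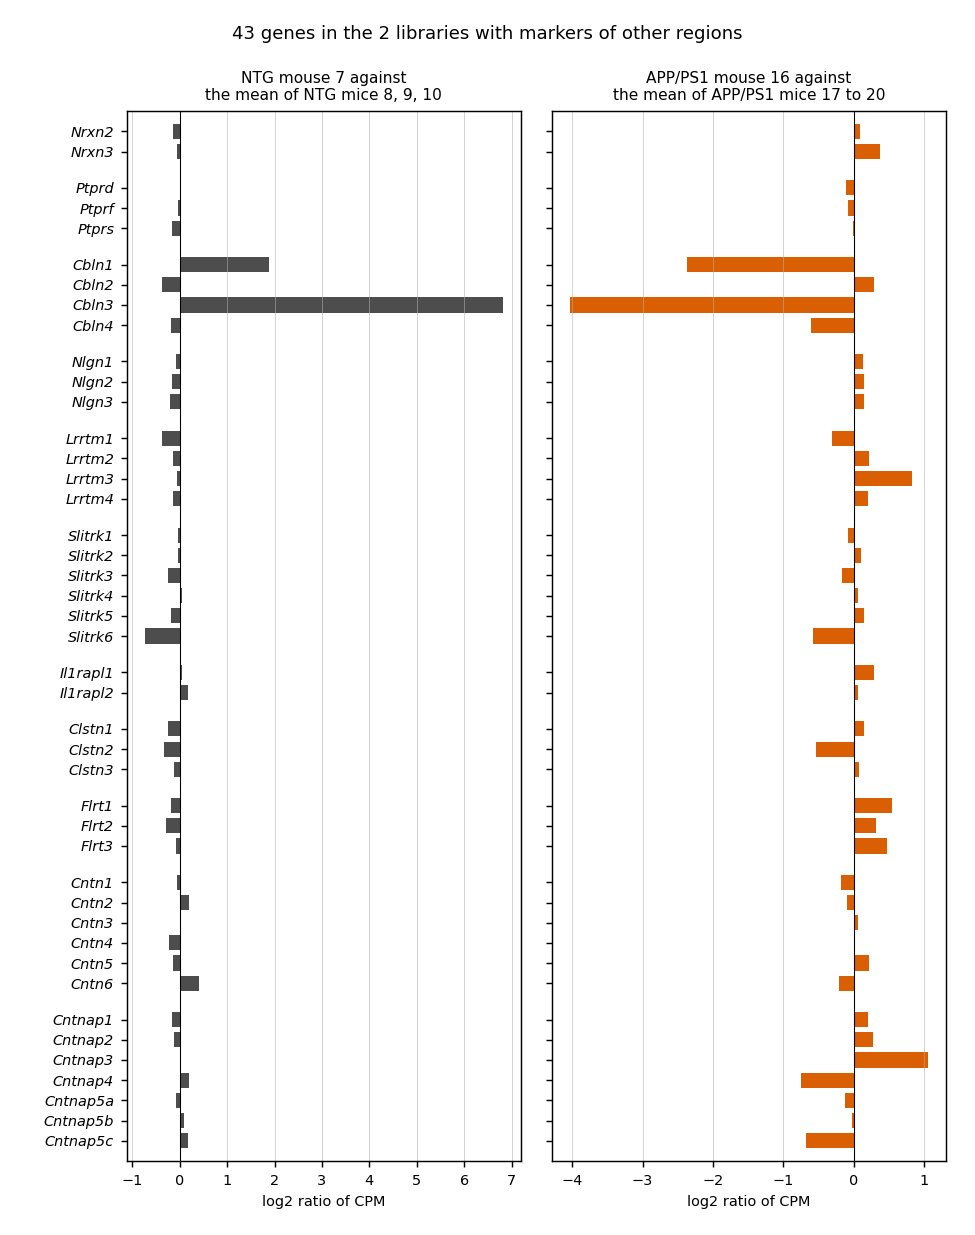
Ratio of CPM (log2 axis, bars) of NTG mouse 7 to the mean of mice 8 to 10, left, and of APP/PS1 mouse 16 to the mean of mice 17 to 20, right, for 43 of the 44 genes. Cbln3 and Cbln1 have the longest bars in both panels, upward in mouse 7 and downward in mouse 16, and Cntnap3 and Lrrtm3 stand out upward in mouse 16.

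The cerebellins carried these differences most. Cbln1, the cerebellin best known from the parallel fibre synapse of the cerebellum, was at 78.7 CPM in mouse 7 and at 20.5, 17.8 and 25.5 CPM in the other NTG mice. In APP/PS1 mice it was at 4.16 CPM in mouse 16 and at 20.2, 28.4, 19.1 and 18.2 CPM in mice 17 to 20, and in APP/PS1+CP2 mice it lay between 18.1 and 26.4 CPM. Only mice 7 and 16 stood outside the range of 17.8 to 28.4 CPM. Cbln3, a cerebellin of cerebellar granule cells, was at 87.5 CPM in mouse 7 and at 0.759, 0.809 and 0.770 CPM in the other NTG mice. In APP/PS1 mice it reached 24.4 CPM in mouse 18, 6.53 CPM in mouse 19 and 3.11 CPM in mouse 17, and was at 0.530 and 0.631 CPM in mice 16 and 20. With CP2 it was at 1.78 CPM in mouse 21 and at 0.471 to 0.757 CPM in the others. Cbln3 was thus above 1 CPM in 5 mice of 3 groups, and it was the only member that the filter left untested in all comparisons.

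Gabra6, a GABA receptor subunit of cerebellar granule cells, was at 81.0 CPM in mouse 7, 11.4 CPM in mouse 18, 4.15 CPM in mouse 19, 2.28 CPM in mouse 17 and 1.15 CPM in mouse 21. In the other 9 mice it was at 0.18 CPM or less, with no count in mouse 24. The mice with Gabra6 above 1 CPM were the mice with Cbln3 above 1 CPM. Of the 6 cerebellar markers 5 were highest in mouse 7, and their summed CPM spanned 17.9 to 299 (NTG), 12.2 to 69.4 (APP/PS1) and 18.4 to 24.4 (APP/PS1+CP2). The part of these markers in the cerebellin values was not tested.

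**Figure D3:**
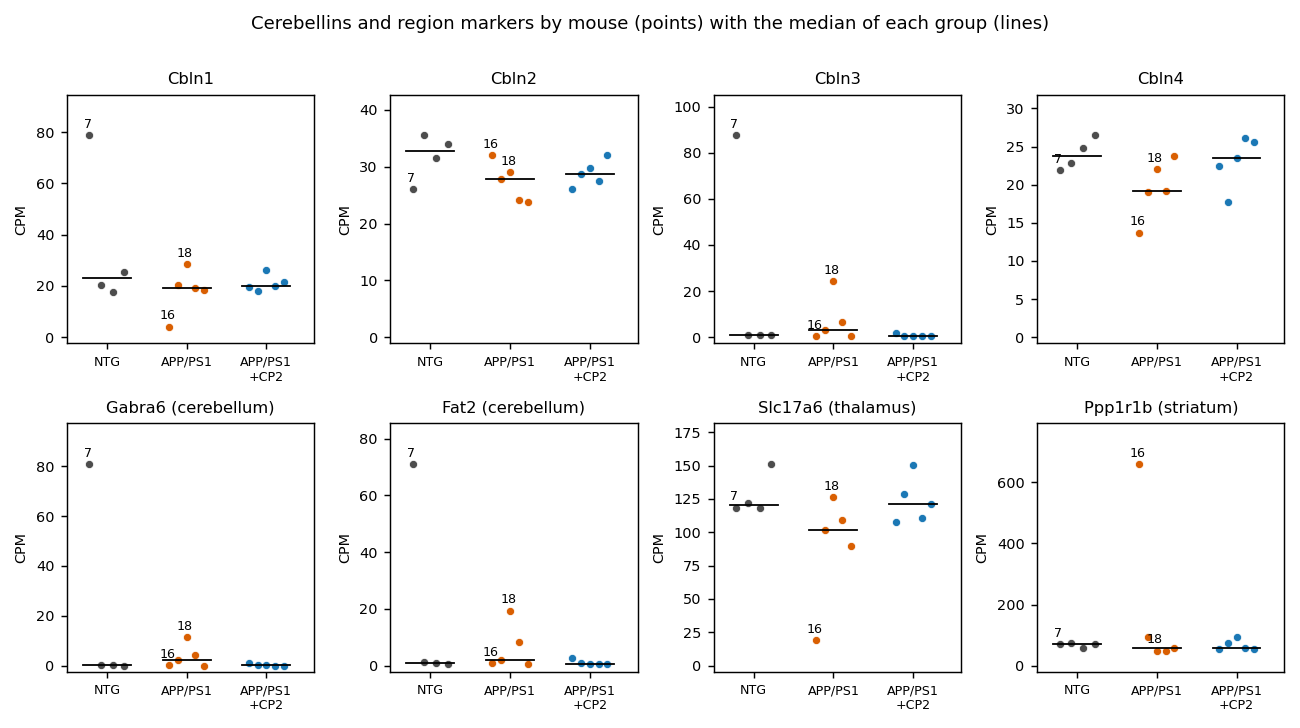
CPM of the 4 cerebellins and of 4 region markers in each mouse (points) with group medians (lines), for the NTG, APP/PS1 and APP/PS1+CP2 groups, with mice 7, 16 and 18 numbered. Cbln1, Cbln3, Gabra6 and Fat2 are highest in mouse 7, while mouse 16 is lowest for Cbln1 and Slc17a6 and highest for Ppp1r1b.

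Cbln2 and Cbln4, cerebellins of forebrain neurons, did not follow mouse 7 upward. Cbln2 was at 26.0, 35.5, 31.5 and 34.0 CPM in NTG mice 7 to 10 and at 32.1, 27.8, 29.1, 24.1 and 23.9 CPM in APP/PS1 mice 16 to 20. Cbln4 was at 21.9, 22.8, 24.8 and 26.5 CPM in NTG and at 13.7, 19.1, 22.1, 19.2 and 23.8 CPM in APP/PS1 mice. Both groups overlapped for both genes.

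In APP/PS1 against NTG mice, 1 of the 43 members tested fell and none rose at an adjusted p under 0.05 (edgeR quasi-likelihood test, Benjamini-Hochberg over all genes). Of all 16417 genes tested 5.68% passed this threshold, 4.34% higher and 1.34% lower. At an unadjusted p under 0.05 there were 5 members (11.6%), 1 higher and 4 lower, against 18.7% of all genes, 10.6% higher and 8.05% lower. The log2 fold change was below 0 for 28 of 43 members (65.1%) against 51.2% of all genes, and above 0 for 15 (48.8% of all genes), with a median of -0.027 against -0.0042. Markers of 6 microglial genes summed to 646 to 896 CPM in APP/PS1 and to 336 to 355 CPM in NTG mice, and 6 neuronal markers summed to 4509 to 5269 and 4850 to 5427 CPM. The part of these changes in the members' values was not tested.

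The member that fell was Slitrk2, a postsynaptic partner of LAR-type phosphatases on chromosome X. It was at 36.6, 38.4, 37.1 and 36.7 CPM in NTG mice 7 to 10. In APP/PS1 mice 16 to 20 it was at 33.8, 31.5, 32.4, 31.8 and 29.7 CPM. All 5 APP/PS1 mice were below all 4 NTG mice. The mean was 37.2 ± 0.83 CPM (SD, n = 4) in NTG and 31.8 ± 1.49 CPM (SD, n = 5) in APP/PS1 mice, a log2 fold change of -0.22 (SE 0.047, 95% interval -0.32 to -0.11) with an adjusted p of 0.0221. The groups did not overlap for 2 members, Slitrk2 and Clstn3, both lower, against 10% of all genes in either direction. Without NTG mouse 8, 9 or 10 or APP/PS1 mouse 17 the adjusted p of Slitrk2 was between 0.0597 and 0.0888, with log2 fold changes from -0.22 to -0.20.

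With CP2, in mice 21 to 25, Slitrk2 was at 35.0, 32.6, 34.3, 35.9 and 33.3 CPM (mean 34.2 ± 1.32, SD, n = 5). These values lay between the other groups, overlapping with APP/PS1 mice and all below NTG mice. Against APP/PS1 mice the log2 fold change was 0.11 (SE 0.045, unadjusted p = 0.0395, adjusted p = 0.744 by edgeR). Against NTG mice it was -0.11 (SE 0.043, unadjusted p = 0.0284, adjusted p = 0.183 by edgeR).

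Slitrk2 is shown here with its promoter because it and Ptprf were the members that passed the adjusted test in a comparison. The 250 bases before the RefSeq start of each gene (GRCm38.p6) were searched on both strands for the TATA box (TATAAA), the CCAAT box, the GC box (GGGCGG), the E-box (CACGTG) and the cyclic AMP response element (TGACGTCA), with matches in capitals. The Slitrk2 window is chrX:66649068-66649317, plus strand, and holds 6 CpG dinucleotides and no match. The Ptprf window is chr4:118291398-118291647, minus strand, and holds 18 CpG dinucleotides and 2 matches to GGGCGG.
Slitrk2: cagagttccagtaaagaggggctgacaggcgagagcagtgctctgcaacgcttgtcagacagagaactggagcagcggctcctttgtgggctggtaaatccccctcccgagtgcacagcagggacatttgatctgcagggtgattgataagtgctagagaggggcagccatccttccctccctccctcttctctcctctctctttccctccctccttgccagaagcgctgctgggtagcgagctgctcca
Ptprf: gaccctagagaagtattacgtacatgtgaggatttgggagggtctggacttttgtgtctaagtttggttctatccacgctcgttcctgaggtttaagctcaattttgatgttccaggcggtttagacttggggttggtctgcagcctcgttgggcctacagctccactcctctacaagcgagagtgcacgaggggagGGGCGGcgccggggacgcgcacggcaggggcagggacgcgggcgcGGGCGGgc

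Of all 32851 RefSeq promoter windows of this length 32.7% hold the GC box, 33.8% the CCAAT box, 12.4% the TATA box, 6.02% the E-box and 1.55% the cyclic AMP response element. The median window holds 6 CpG dinucleotides. A match of letters describes the window and is no measure of binding, and 31 of the 44 members had an entry.

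Ptprf (LAR), a presynaptic receptor phosphatase on chromosome 4 (mm10, 118208213 to 118291405), was at 109, 103, 110 and 124 CPM in NTG mice 7 to 10. It was at 126, 129, 134, 143 and 124 CPM in APP/PS1 mice 16 to 20, and at 143, 137, 119, 129 and 134 CPM in APP/PS1+CP2 mice 21 to 25. Only NTG mouse 10 reached the range of the transgenic groups. The means were 112 ± 9.0 (SD, n = 4), 131 ± 7.6 (SD, n = 5) and 132 ± 9.2 CPM (SD, n = 5). Ptprf rose in APP/PS1+CP2 against NTG mice, by a log2 fold change of 0.26 (SE 0.067, 95% interval 0.11 to 0.41, adjusted p = 0.0463 by edgeR). This call was lost in 7 of the 9 fits without 1 mouse, those without mouse 7, 8, 9, 21, 22, 24 or 25, where the log2 fold change was 0.22 to 0.27 and the adjusted p 0.0767 to 0.136. In APP/PS1 against NTG mice the log2 fold change was 0.24 (SE 0.066, adjusted p = 0.0677). Between the APP/PS1 groups it was 0.014, with a 95% interval from -0.12 to 0.15.

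Among the other presynaptic members, Nrxn2, the neurexin highest in RPKM, was at a mean of 377, 368 and 376 CPM in the NTG, APP/PS1 and APP/PS1+CP2 groups, and the 95% interval of its log2 fold change was -0.16 to 0.10 in the first comparison and -0.060 to 0.12 in the second. Nrxn3 reached an unadjusted p of 0.0293 in APP/PS1+CP2 against NTG mice, at a log2 fold change of 0.09 (SE 0.035, adjusted p = 0.187 by edgeR).

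Ptprd, a LAR-type phosphatase that binds Slitrks and IL1RAPLs, was at 239, 241, 240.4 and 231 CPM in NTG and at 218, 221, 239, 236 and 247 CPM in APP/PS1 mice. Mice 21 to 25 were at 252, 252, 257, 271 and 280 CPM. All APP/PS1+CP2 mice were above all mice of both other groups. Ptprd had a log2 fold change of 0.18 against APP/PS1 mice (SE 0.050, unadjusted p = 0.00504, adjusted p = 0.744 by edgeR) and 0.15 against NTG mice (SE 0.044, unadjusted p = 0.00528, adjusted p = 0.0711 by edgeR), while APP/PS1 and NTG mice differed by -0.026 (95% interval -0.14 to 0.087). Ptprs, the LAR-type phosphatase highest in RPKM, averaged 394 ± 16.6 CPM without and 422 ± 14.7 CPM with CP2 in APP/PS1 mice (SD, n = 5 each). Its log2 fold change was 0.10 (unadjusted p = 0.0494, adjusted p = 0.744 by edgeR). The unadjusted p of Ptprs was under 0.05 in 5 of 18 alternatives.

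On the postsynaptic side, Clstn3, a calsyntenin that binds neurexins, was at 395, 421, 430 and 436 CPM in NTG and at 391, 376, 373, 360 and 384 CPM in APP/PS1 mice. All APP/PS1 mice were below all NTG mice, with NTG mouse 7 and APP/PS1 mouse 16 closest to each other. Clstn3 had a log2 fold change of -0.15 (SE 0.045, adjusted p = 0.0888 by edgeR). Without these 2 mice, left out after the data were seen, it was -0.19 with an adjusted p of 0.0356 by edgeR. Leaving out the closest pair had to widen the difference. Over all 18 alternatives the log2 fold change of Clstn3 was between -0.19 and -0.12, and its adjusted p reached 0.298 by edgeR. With CP2 Clstn3 was at 387, 377, 423, 409 and 407 CPM, overlapping with both groups. Clstn1 differed by -0.015 in APP/PS1 against NTG mice (95% interval -0.19 to 0.16), and Clstn2 by -0.16 (95% interval -0.46 to 0.13).

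Lrrtm1, a neurexin ligand of excitatory synapses, was at 55.1, 66.1, 69.5 and 77.4 CPM in NTG and at 45.7, 61.8, 51.3, 50.2 and 63.5 CPM in APP/PS1 mice. With CP2 the level was 59.5, 63.0, 71.9, 68.7 and 62.0 CPM. Mice 7 and 16 were the lowest of their groups, and all groups overlapped. For Lrrtm1 this gave a log2 fold change of -0.29 in APP/PS1 against NTG mice (SE 0.12, unadjusted p = 0.0334, adjusted p = 0.215 by edgeR) and of 0.25 in APP/PS1+CP2 against APP/PS1 mice (SE 0.091, unadjusted p = 0.0178, adjusted p = 0.744 by edgeR). Lrrtm2, Lrrtm3 and Lrrtm4 had an unadjusted p of 0.2 or more in all 3 comparisons, and Lrrtm3 was at 56.5 CPM in mouse 16 against 27.0 to 34.5 CPM in the other APP/PS1 mice.

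Of the neuroligins, postsynaptic receptors of neurexins, none of the 3 reached an unadjusted p of 0.05 in a comparison. Nlgn2 was at 246 ± 15.0, 247 ± 11.6 and 255 ± 3.29 CPM in the NTG, APP/PS1 and APP/PS1+CP2 groups (SD, n = 4, 5 and 5). Its log2 fold change in APP/PS1 against NTG mice was 0.0085, with a 95% interval from -0.11 to 0.13. Nlgn3 shares 41.2% of its exon bases with the gene model Gm21986 on the same strand, and Lrrtm4 shares 25.1% with Gm4409 on the opposite strand, so their counts can hold reads of these neighbours.

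Slitrk4, on chromosome X like Slitrk2, was at 51.3, 51.0, 49.4 and 49.3 CPM in NTG and at 47.8, 45.5, 43.9, 44.6 and 49.5 CPM in APP/PS1 mice. Only mouse 20 reached into the NTG range. Its log2 fold change was -0.11 (SE 0.047, unadjusted p = 0.0367, adjusted p = 0.225 by edgeR). Slitrk5, higher by 0.15 in APP/PS1 against NTG mice (SE 0.074, unadjusted p = 0.0685), was higher by 0.13 in APP/PS1+CP2 against NTG mice (SE 0.057, unadjusted p = 0.0367, adjusted p = 0.21 by edgeR). Slitrk1, the Slitrk highest in RPKM, differed by -0.011 in APP/PS1 against NTG mice, with a 95% interval from -0.12 to 0.10. Across the family 5 of 6 genes had a log2 fold change below 0 in the first comparison, against 51.2% of all genes.

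**Figure D4:**
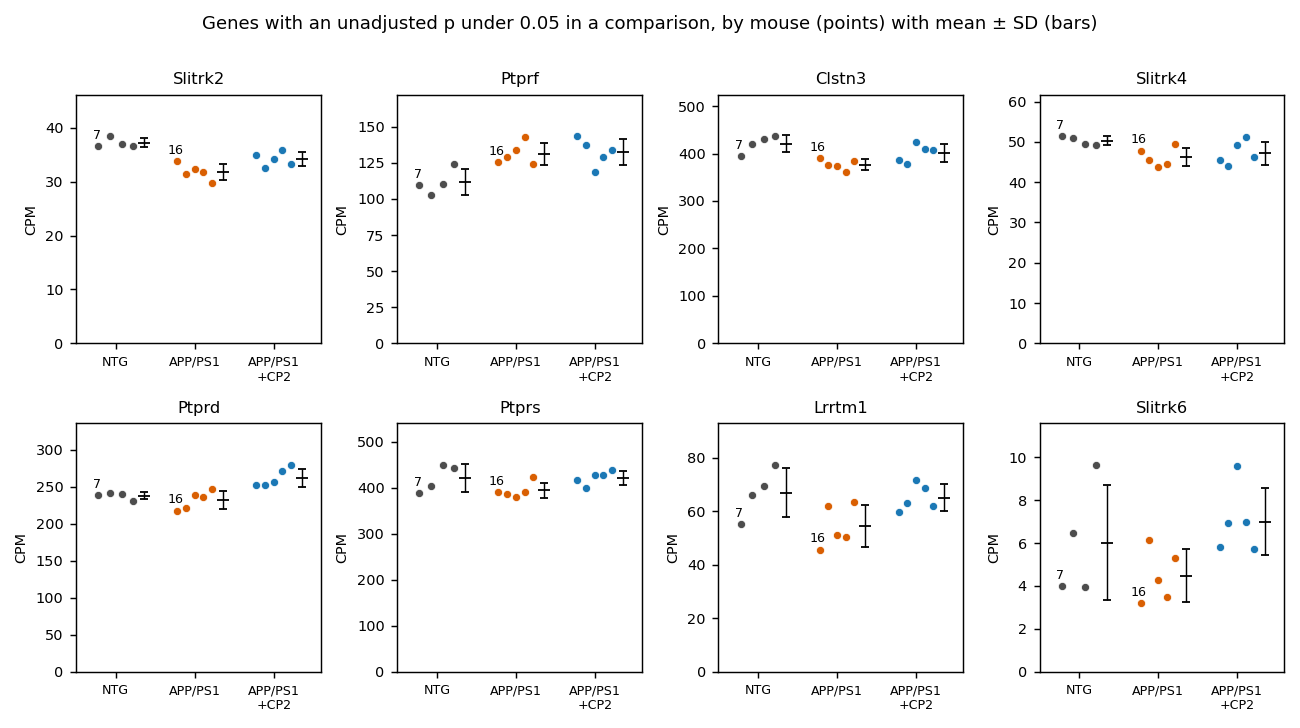
CPM of 8 genes with an unadjusted p under 0.05 in a comparison, in each mouse (points) with the mean ± SD of each group (bars), and with mice 7 and 16 numbered. Slitrk2 and Clstn3 are lower in all APP/PS1 mice than in all NTG mice, and Ptprd is higher in all APP/PS1+CP2 mice than in all others.

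In APP/PS1+CP2 against APP/PS1 mice no member passed an adjusted p of 0.05 by edgeR or by DESeq2, and 1 of all 16407 genes (0.00609%) did by edgeR. At an unadjusted p under 0.05 edgeR gave 7 members (16.3%), all higher, and DESeq2 gave 8, against 6.55% of all genes by edgeR, 2.88% higher and 3.66% lower. Ptprd, Ptprs, Lrrtm1, Slitrk2, Slitrk6 and Cntnap5b were among them, with log2 fold changes from 0.10 to 0.64. The log2 fold change was above 0 for 31 of 43 members (72.1%) against 47.5% of all genes, and the median was 0.061 against -0.0060. Members of 1 mouse are not independent values. Their median deviation from the group mean varied between mice with an SD of 0.069 on the log2 scale. This SD describes single mice, and a difference between group means varies less, so it gives no bound for the median fold changes. The share of ribosomal RNA-like reads was 2.40% to 5.51% in APP/PS1 and 4.49% to 7.40% in APP/PS1+CP2 mice. It was lowest in APP/PS1 mice 16 and 17, at 2.40% and 2.68%. With this share as a covariate, 2 members had an unadjusted p under 0.05 and 36 of 43 were above 0. Leaving out 1 mouse gave between 3 and 10 members. It gave 4 without mouse 18 or 23 and 3 without mouse 24 or 25.

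In APP/PS1+CP2 against APP/PS1 mice the largest difference among the 43 members tested was that of Slitrk6. This Slitrk of the inner ear and thalamus was one of the lowest members. It was at 4.01, 6.47, 3.96 and 9.65 CPM in NTG, at 3.21, 6.15, 4.26, 3.48 and 5.31 CPM in APP/PS1, and at 5.82, 6.93, 9.58, 6.96 and 5.73 CPM in APP/PS1+CP2 mice. The lowest APP/PS1+CP2 mice overlapped with the highest APP/PS1 mouse. The log2 fold change was 0.64 (SE 0.20, 95% interval 0.21 to 1.07, unadjusted p = 0.00717, adjusted p = 0.744 by edgeR). The summed CPM of 8 thalamic markers spanned 171 to 465 (APP/PS1) and 396 to 616 (APP/PS1+CP2), and mice 10 and 23, highest for Slitrk6, were also highest for this sum at 618 and 616 CPM. The part of these markers in the Slitrk6 values was not tested.

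Cntnap5b, a member of the Caspr family, averaged 14.6 ± 0.99 CPM without and 16.3 ± 1.12 CPM with CP2 in APP/PS1 mice (SD, n = 5 each). Its log2 fold change was 0.16 (SE 0.067, unadjusted p = 0.0368, adjusted p = 0.744 by edgeR). In this comparison 6 of 7 Casprs and 5 of 6 contactins had a log2 fold change above 0, and all 3 FLRTs were below 0. Of all genes 47.5% were above and 52.5% below 0, and LRRTMs and IL1RAPLs were split evenly. No contactin or FLRT reached an unadjusted p of 0.05, and families this small do not separate such splits from these shares. The only member without overlap between the groups was Ptprd, against 1.14% of all genes.

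In APP/PS1+CP2 against NTG mice 1 of the 43 members, Ptprf, rose and none fell, against 6.02% of all 16416 genes in either direction, 4.56% higher and 1.46% lower. At an unadjusted p under 0.05 there were 6 members (13.95%), against 20.2% of all genes, 11.6% higher and 8.59% lower. Nrxn3, Ptprd, Ptprf, Slitrk5 and Cntnap5a were higher and Slitrk2 was lower. Groups did not overlap for Ptprd and Slitrk2, against 9.61% of all genes. The log2 fold change was above 0 for 26 members (60.5%) against 49.4% of all genes, and below 0 for 17 (50.6% of all genes), with a median of 0.014. Cntnap5a, a member of the Caspr family, was at 63.6 ± 3.94 CPM in NTG (SD, n = 4) and 69.3 ± 4.18 CPM in APP/PS1+CP2 mice (SD, n = 5), a log2 fold change of 0.14 (SE 0.054, unadjusted p = 0.0303, adjusted p = 0.19 by edgeR).

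**Figure D5:**
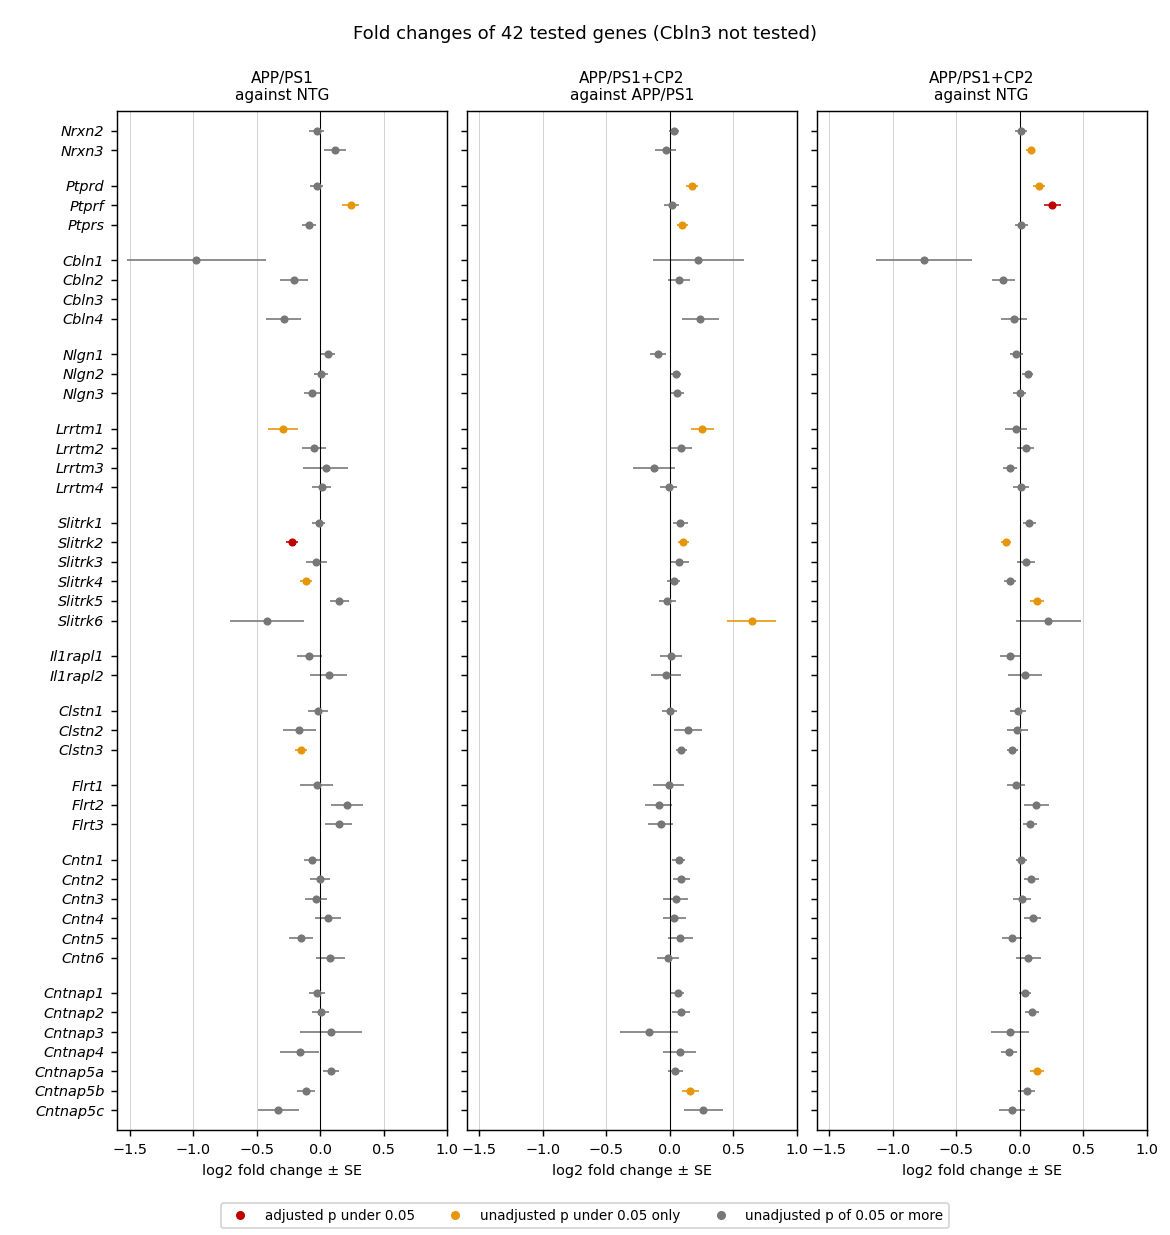
Log2 fold change ± SE of 42 of the 43 genes tested in the 3 comparisons, by family, with red for an adjusted p under 0.05 and orange for an unadjusted p under 0.05 only. Slitrk2 is red in the first panel and Ptprf in the right-hand panel, the 6 coloured genes of the second panel all lie above 0, and Cbln1 has the widest error bars.

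Among the 43 members tested, which leave out Cbln3, the largest fold change in both comparisons with NTG mice was that of Cbln1. Its log2 fold change was -0.98 in APP/PS1 against NTG mice (SE 0.55, unadjusted p = 0.105, adjusted p = 0.39 by edgeR) and -0.75 in APP/PS1+CP2 against NTG mice (SE 0.38, unadjusted p = 0.0723, adjusted p = 0.298 by edgeR). Without NTG mouse 7 and APP/PS1 mouse 16 the first value was 0.022, and without mouse 7 the second was -0.0038. The same 2 mice left out, Cbln2 had a log2 fold change of -0.35 in APP/PS1 against NTG mice with an adjusted p of 0.0256 by edgeR, against -0.21 and 0.356 with all mice. For Cbln2 mouse 7 was the lowest NTG and mouse 16 the highest APP/PS1 mouse. Leaving them out, which was decided after the data were seen, therefore had to widen this difference.

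Contactins and Casprs had no unadjusted p under 0.05 in APP/PS1 against NTG mice. Cntn1, the contactin of paranodes and of many neurons, differed by -0.062 (95% interval -0.20 to 0.074) and Cntnap1, its paranodal partner, by -0.023 (95% interval -0.16 to 0.12). Summed CPM of 6 oligodendrocyte markers spanned 5198 to 7550 (NTG) and 4616 to 7043 (APP/PS1). Of the FLRTs, Flrt2 differed by 0.21 (SE 0.12, unadjusted p = 0.117), and Il1rapl1 by -0.085 (95% interval -0.30 to 0.13).

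The latrophilins were found by gene identifier under the symbols Lphn1, Lphn2, Lphn3 and Eltd1. Eltd1 (Adgrl4), an adhesion receptor of endothelial cells, was at 13.3, 14.2, 14.7 and 13.1 CPM in NTG and at 16.7, 16.7, 19.04, 17.8 and 18.01 CPM in APP/PS1 mice. Dosed mice were at 18.6, 18.4, 17.6, 20.04 and 19.8 CPM. Both transgenic groups were above all NTG mice. Eltd1 rose by a log2 fold change of 0.36 in APP/PS1 (SE 0.065, adjusted p = 0.00937 by edgeR) and of 0.46 in APP/PS1+CP2 mice (SE 0.062, adjusted p = 0.00157 by edgeR), both against NTG mice. The summed CPM of 6 endothelial markers was 199.6 to 215 (NTG), 208 to 271 (APP/PS1) and 216 to 252 (APP/PS1+CP2), and their part in the Eltd1 values was not tested.

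The 3 neuronal latrophilins, receptors of teneurins and FLRTs, differed less. Lphn2 rose by 0.20 in APP/PS1+CP2 against NTG mice (SE 0.054, adjusted p = 0.0493 by edgeR), with means of 59.1 ± 2.95 CPM in 4 NTG and 67.6 ± 4.21 CPM in 5 dosed mice (SD). These groups did not overlap, but the highest NTG mouse was at 62.5 CPM and the lowest dosed mouse at 62.7 CPM. In APP/PS1 mice Lphn2 was at 91.9 CPM in mouse 16 and at 58.1 to 66.8 CPM in the others. Lphn1 and Lphn3 had an adjusted p of 0.644 or more in all comparisons.

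Partner genes of these families were taken from 7 lists with 71 genes, all tested: cerebellin and C1q-like partners, neurexin partners, teneurins and Unc5 receptors, LAR and netrin-G partners, SynCAMs with pentraxins and LGI proteins, contactin partners, and intracellular scaffolds. These lists were chosen with earlier results of these data known. In APP/PS1 against NTG mice 53 of 71 (74.6%) had a log2 fold change below 0, against 51.2% of all genes, with a median of -0.081, and 9 (12.7%) had an unadjusted p under 0.05, against 18.7% of all genes. In APP/PS1+CP2 against APP/PS1 mice 55 of 71 (77.5%) were above 0, against 47.5% of all genes, with a median of 0.046, and 6 (8.45%) had an unadjusted p under 0.05, against 6.55% of all genes. Both shares use the same APP/PS1 mice, and genes of the same mouse are not independent values. APP/PS1 mouse 16 was the lowest of all mice for some partner genes, such as Ntng1 and Tenm2. It was the highest for others, such as Lin7a and Adam23, and its part in these shares was not tested. In APP/PS1+CP2 against NTG mice 44 of 71 (62.0%) were below 0, against 50.6% of all genes, with a median of -0.029, and 15 (21.1%) had an unadjusted p under 0.05, against 20.2% of all genes. At an adjusted p under 0.05 there was 1 partner gene in APP/PS1 against NTG mice, where 5.68% of all genes passed. There were 2 in APP/PS1+CP2 against NTG mice, where 6.02% of all genes passed, and 0 between the APP/PS1 groups by edgeR, where 6 had an unadjusted p under 0.05.

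Unc5d, a receptor of netrins and FLRTs, was at 46.9, 50.01, 51.5 and 58.2 CPM in NTG and at 59.0, 78.6, 69.7, 76.9 and 84.6 CPM in APP/PS1 mice. In mice 21 to 25 it was at 77.5, 77.5, 116, 110 and 78.4 CPM. Both transgenic groups were above all NTG mice. It rose by a log2 fold change of 0.52 in APP/PS1 (SE 0.10, adjusted p = 0.0162 by edgeR) and of 0.84 in APP/PS1+CP2 mice (SE 0.13, adjusted p = 0.00334 by edgeR), both against NTG mice. C1ql2, a secreted C1q-like protein of dentate mossy fibres, fell by 0.51 on the log2 scale in APP/PS1+CP2 against NTG mice (SE 0.13, adjusted p = 0.0428 by edgeR), with means of 31.6 ± 6.33 CPM in 4 NTG and 21.9 ± 2.79 CPM in 5 dosed mice (SD). In APP/PS1 mice it was at 14.1 to 28.9 CPM in mice 17 to 20 and at 1.68 CPM in mouse 16. Of 7 dentate markers 4 (Prox1, Dsp, Tdo2 and Lct) were also lowest of all mice in mouse 16 and 1 (Pdzd2) was highest, and their sum there was 299.5 CPM against 243 to 271 CPM in the other APP/PS1 mice. The part of these markers in the C1ql2 values was not tested.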

How the data were processed

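Brain RNA of 14 mice was sequenced. The authors prepared TruSeq v2 libraries, used TopHat2 with the mm10 genome to align paired reads, which FeatureCounts then assigned to Ensembl genes, each read to every gene it overlapped. They deposited raw counts per gene and, beside them, RPKM values, which were used here to order genes. The kit marks no strand, and the strand setting is not given in the sources used here.

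Groups followed the labels. Each comparison was fitted on its 2 groups with edgeR 4.0.16 in R 4.3.3 (TMM factors, quasi-likelihood test, Benjamini-Hochberg over all genes tested), in place of the DESeq2 of the study's script. Its filter was kept: a CPM above 1 in every mouse of at least 1 group. Intervals are 95% t intervals. Each mouse is 1 library from 1 animal, and no replicates were alike (26 pairs, lowest chi-square per degree of freedom 9.87). The procedure was tested on simulated data.

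Alternatives were DESeq2 1.42.0, RLE or upper-quartile factors, no filter, 10 counts in every mouse, 1 fit of all groups, limma-voom (3.58.1) with quality weights, a ribosomal RNA covariate, and each mouse left out; mice 7 and 16 were left out together after the data were seen. Named genes are members with an unadjusted p under 0.05, the highest in RPKM of each family, those of largest fold change, untested members, and partner genes with an adjusted p under 0.05. Others named were chosen after their values were seen. Members and lists were chosen with earlier results of these data known. Exon overlaps used GENCODE vM21. The values of 1 member that enters the counts are not reported here.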

Additional observations from a re-analysis of the deposited data

Results flagged for a closer look

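For each member and group the mouse farthest from the others was compared with the range of the group by Dixon's criterion. Of 132 groups of 4 or 5 mice checked 15 exceeded the 95% critical value, and chance gives about 1 in 20 for independent values. Genes of 1 library are not independent. The same rate over all genes was not computed, so the count is not read as a trait of the members. NTG mouse 7 gave 5 of them and APP/PS1 mouse 16 gave 4.

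In mouse 7 Cbln1 stood at 78.7 CPM against at most 25.5 in the other NTG mice, Cbln3 at 87.5 CPM against at most 0.809 and Cntn6 at 21.4 CPM against at most 16.5. The same mouse was lowest for Clstn1 at 958 CPM against at least 1139, and for Clstn2 at 96.2 CPM against at least 120 in the other NTG mice. In mouse 16 Lrrtm3 stood at 56.5 CPM, Flrt3 at 40.9 CPM, Cntnap2 at 134 CPM and Cntnap3 at 17 CPM, against at most 34.5, 30.3, 114 and 9.06 CPM in the other APP/PS1 mice.

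Cbln3 was also apart in APP/PS1 mouse 18 at 24.4 CPM and in APP/PS1+CP2 mouse 21 at 1.78 CPM. Ptprs was apart in APP/PS1 mouse 20 at 423 CPM and Cntn1 in NTG mouse 10 at 508 CPM, both highest of their groups. Cntn4 in APP/PS1+CP2 mouse 21 at 42.9 CPM and Cntnap4 in APP/PS1+CP2 mouse 22 at 37.8 CPM were lowest of theirs.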

How the results depend on the processing

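In APP/PS1 against NTG mice 1 member passed an adjusted p of 0.05. The count was 3 with DESeq2, with all 3 groups in one fit, with limma-voom quality weights and without NTG mouse 7 and APP/PS1 mouse 16, it was 0 with the ribosomal RNA covariate, and it ranged from 0 to 2 over single mice left out. At an unadjusted p under 0.05 the count of 5 became 8 with no filter or one fit, 9 with quality weights or without mice 7 and 16, 3 with the covariate and 4 to 7 with 1 mouse left out. In APP/PS1+CP2 against APP/PS1 mice the count of 7 became 2 with the covariate and 3 to 10 with 1 mouse left out. In APP/PS1+CP2 against NTG mice the adjusted count of 1 became 2 with DESeq2, 0 with RLE factors, no filter or 10 counts in every mouse, and 0 to 1 with 1 mouse left out, and the unadjusted count of 6 became 3 to 7.

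Slitrk2 kept its call in 13 of 18 alternatives of the first comparison and Ptprf in 7 of 17 of the comparison of APP/PS1+CP2 with NTG mice. With the covariate Slitrk2 had a log2 fold change of -0.24 and an adjusted p of 0.0708. The ribosomal RNA-like share used as covariate was 4.72% or more in all NTG mice and 2.40% to 5.51% in APP/PS1 mice. Clstn3 and Ptprf passed in the first comparison under 4 and 5 alternatives, and Ptprd in APP/PS1+CP2 against NTG mice with DESeq2. Calls of Eltd1, Lphn2 and the partner genes were not followed through the alternatives. The direction was followed only for Cbln1 and for members with an unadjusted p under 0.05, in the comparison where they had it. Of those followed, Cbln1 changed direction, from -0.98 to 0.022 in APP/PS1 against NTG mice without mice 7 and 16. The cause was not tested. With 4 or 5 mice a group, small differences stay within the intervals. No paired analysis was possible because no litter or other pairing of the mice is labelled.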
